A study of Mus musculus with 35 samples.

Results

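With deletion of Smg6, RNA changed differently in fractions enriched for pachytene spermatocytes (Spc) and for round spermatids (RS). This difference between the fractions is what was measured here. It is the interaction of genotype and cell type, that is, the effect of the conditional knockout (cKO) in RS minus its effect in Spc, on the log2 scale. All 12 long RNA libraries of the 2 cell types, out of 35 samples of all kinds, entered 1 fit, and 18171 of 24411 gene rows had 10 or more counts in at least 3 of them. Of these genes, 322 were lower in cKO Spc and higher in cKO RS, and 182 were higher in cKO Spc and lower in cKO RS, each effect passing an adjusted p threshold of 0.05 (edgeR). A positive interaction means that the gene stood higher in cKO RS than its change in Spc would give.

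The 4 groups were control Spc, Smg6-cKO Spc, control RS and Smg6-cKO RS, with 3 libraries each, all from adult mice of mixed C57Bl/6J and SV129 background. Knockout mice carried 2 floxed Smg6 alleles and Ngn3-Cre, which acts in germ cells from early postnatal spermatogonia onwards, so the somatic cells of the testis keep Smg6. Control mice lacked Cre and carried 1 or 2 floxed alleles. Both cell types were fractions of dissociated testis, enriched by sedimentation through a BSA gradient and not sorted by a marker. By nuclear (DAPI) staining the study found both fractions enriched but not pure, so they held other cells. Chromatoid bodies (CBs), the RNA granules of round spermatids, were a further sample kind, with 4 control and 3 cKO libraries of RNA that was not selected for poly(A). The methods describe the 3 libraries of a group as biological replicates and the cells as isolated from 3 to 6 testes, which can pool mice. They do not say which mice each library came from, so p-values measure the spread between these samples.

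SMG6 is the endonuclease of nonsense-mediated decay (NMD), which cuts mRNAs on which translation ends too early, and its loss can raise such mRNAs. In the testis, spermatocytes pass through meiosis and then become round spermatids, which express a large set of haploid genes before they elongate. Sertoli cells surround and feed the germ cells, engulf dying ones, and are somatic cells, like the Leydig cells and macrophages between the tubules.

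Gene counts totalled 36419197 to 47355837 per library. Gene-level Smg6 did not check the deletion, since only exon 9 is removed and counts were per gene. Smg6 had normalized counts of 7386, 7130.4 and 4702 in control Spc and 8123, 8148 and 7841 in cKO Spc, and of 9366, 6168 and 10115 in control RS and 8161, 8746 and 8379.9 in cKO RS. Here and below, the values of a group are given in the order of libraries 1, 2 and 3. The interaction of Smg6 was -0.35 (SE 0.26, adjusted p = 0.293), and it was 0.36 when libraries were scaled by size alone. As checks of the labels, the 15 late spermatid genes summed to 1473250 to 1940230 normalized counts in control RS but only 120299 to 121977 in cKO RS, below the 205298 to 395823 of control Spc. The 24 Sertoli cell markers were detected in all 4 groups, and which cells this RNA came from was not tested. Control Spc library 1 stood apart from its group, with the lowest Sertoli sum and the highest late spermatid sum of the 3. Normalization factors (TMM) were 0.716 to 0.767 in control RS and 1.00 to 1.18 in the other 9 libraries, so that values of control RS depend most on the scaling. In bulk samples, fewer cells of a type and less RNA per cell cannot be told apart.

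The cKO effect differed between Spc and RS for 7834 of 18171 genes (43.1%) by the interaction test, with the same threshold. It was more positive in RS for 3459 genes (19.0%) and more negative for 4375 (24.1%). Differences of at least 1.5 on the log2 scale were mostly positive, with 1462 genes (8.05%) against 516 (2.84%). For 4559 of the 7834 genes the effect was called in RS alone, for 656 in Spc alone and for 149 in neither. Another 1966 changed the same way in both cell types, 1863 of them more strongly in RS. The remaining 504 changed in opposite directions. The median interaction over all genes tested was -0.13, the median cKO effect 0.10 in Spc and 0.13 in RS. Scaling by library size in place of TMM moved the median interaction to 0.58 and the calls to 8087 positive and 545 negative, so the balance of directions depends on the scaling.

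**Figure D1:**
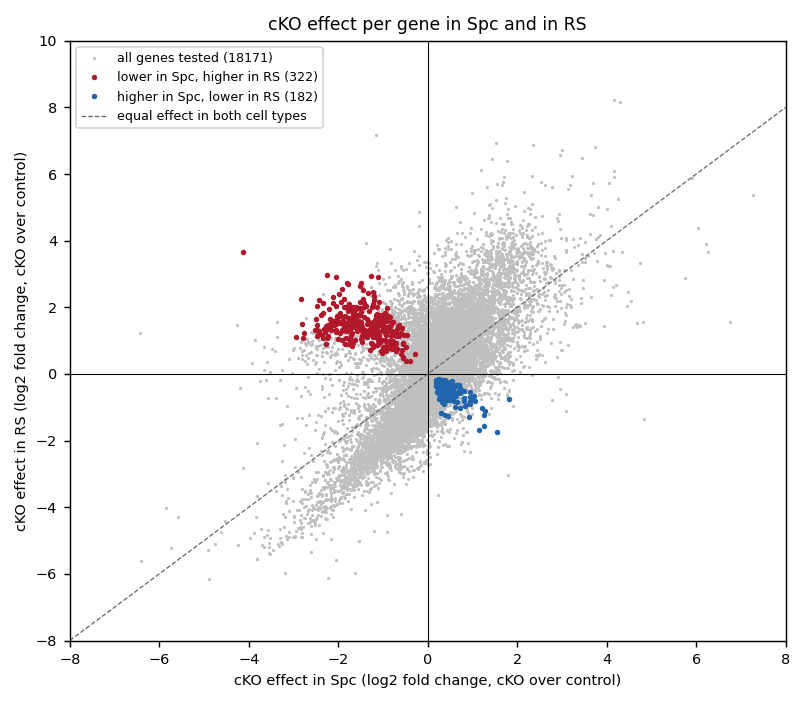
Each point is 1 of the 18171 genes tested, with the log2 fold change of cKO over control in Spc on the x axis and in RS on the y axis, and the dashed line marks an equal effect in both cell types. The 322 genes lower in Spc and higher in RS (red) lie well away from the origin, while the 182 genes of the opposite kind (blue) lie close to it.

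Among 18171 genes, 322 (1.77%) were lower in cKO Spc and higher in cKO RS, and 182 (1.00%) were higher in cKO Spc and lower in cKO RS. The 2 sets were unlike in size of effect. The median cKO effect of the 322 was -1.46 in Spc and 1.42 in RS, and both effects were at least 1 in size for 235 of them. For the 182, the medians were 0.39 and -0.40, and 6 genes had both effects at least 1 in size. The 322 also had fewer counts behind them, with a median mean normalized count of 177.0, against 2627 for the 182 and 428 for all genes tested. These effects chose the genes, so the values describe the sets and are no test of them. At the threshold, Zfp182 and Mfsd1 were the last 2 genes inside the first set, with adjusted p = 0.0499 for both in Spc, and Appl2, with an adjusted p just above 0.05 in Spc, and Sema6c, with adjusted p = 0.0501 in RS, were the first 2 outside. In the second set, Gm4890 and Msi1 were just inside (adjusted p = 0.0497 and 0.0499 in RS), and Wipi2 and Ldhal6b just outside (adjusted p = 0.0504 and 0.0507 in Spc).

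The 322 genes were lower in RS than in Spc in control mice, and mostly not in cKO mice. In controls every one of the 322 was lower in RS than in Spc, with a median log2 difference of mean counts (plus 1) of -2.48, against 0.05 over all genes tested. The choice of the genes favours such a difference, so it describes the set and is no test of it. In cKO mice 52 of them were lower in RS, and the median difference was 0.42. Control Spc had the highest mean of the 4 groups for 309 of the 322 genes and cKO RS for the other 13, and control RS had the lowest for 317. For most members, both cKO groups thus lay between the 2 control groups. In 3 of the 4 groups, 1 library was the lowest for most members. This was control Spc library 1 for 321 of 322 genes, cKO Spc library 1 for 236 and cKO RS library 2 for 296. In control RS the lowest was library 1 for 109 genes, library 2 for 85 and library 3 for 128. Summed over the 322 genes, normalized counts were 118582, 259224 and 223192 in control Spc and 67748, 80619 and 96645 in cKO Spc. They were 41283, 42046 and 40126 in control RS and 106284, 70285 and 118873 in cKO RS. The sums of cKO and control did not overlap in either cell type, which the choice of the genes in these same libraries favours. The 24 Sertoli cell markers, of which 11 are members, summed to 24510, 64425 and 54785 in control Spc and to 12508, 15570 and 19018 in cKO Spc. They summed to 6496, 6587 and 5638 in control RS and to 15574, 8689 and 21871 in cKO RS. The Sertoli sums thus moved with the set in both cell types, but the 2 sums share 11 genes and are not independent. Clu, a gene of both, gave 25556 of the 64425 in control Spc library 2. The part of the Sertoli markers in the result was not tested.

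**Figure D2:**
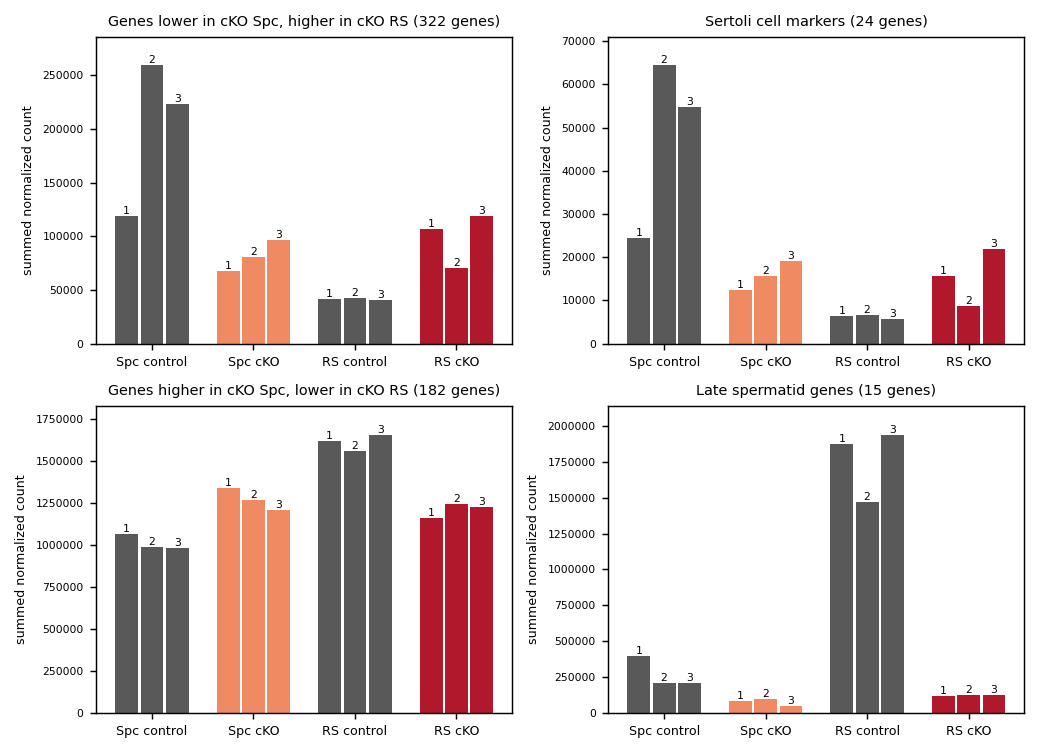
Bars give normalized counts summed over a gene set in each of the 12 libraries, with the library number above each bar. The 322 genes lower in cKO Spc and higher in cKO RS and the 24 Sertoli cell markers have the same order of the 3 libraries in every group, with control Spc library 1 lowest of its group, while late spermatid genes are highest in control RS.

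Without control Spc library 1, the count of genes lower in Spc and higher in RS was 518 and included all 322. It was 189 without control Spc library 2, 196 without library 3 and 173 without cKO Spc library 1, and 221 to 418 without any one of the other 8 libraries. It was 636 when scaled by library size, again with all 322, and 472 by DESeq2, with 318 of them.

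Of the lists examined, which were chosen with earlier results of these data known, Sertoli cell markers held the most genes with opposite effects. These were 11 of 24, all lower in Spc and higher in RS, against 1.77% of all genes tested. Of the 24 markers, 22 were called for the interaction and all 22 were positive, against 19.0% positive over all genes. Their median interaction was 3.15, from a median effect of -1.92 in Spc and 1.22 in RS. The effect was below 0 in Spc for 23 of 24 and above 0 in RS for all 24, and 11 passed the test in both cell types. Another 7 were called lower in Spc alone and 5 higher in RS alone, where 14.6% of all genes were called lower in Spc and 38.2% higher in RS. With each library left out in turn, 21 to 23 markers were called positive and the median interaction was 2.88 to 3.54, and scaled by library size it was 3.86. 

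Sox9, Wt1, Rhox5 and Rhox8, transcription factors of Sertoli cells, were among the 11, while Gata4 was not. Sox9 (chr11:112782224-112787760, plus strand), which starts and keeps the Sertoli cell fate, had opposite effects. Sox9 had normalized counts of 193, 475 and 374 in control Spc and 42.4, 77.5 and 71.6 in cKO Spc, and of 34.7, 43 and 36.9 in control RS and 89.9, 41.5 and 147 in cKO RS. Its effect was -2.44 (SE 0.45) in Spc and 1.28 (SE 0.46) in RS, with an interaction of 3.72 (SE 0.64, adjusted p = 0.00145). In Spc all 3 controls lay above all 3 cKO libraries, while in RS cKO library 2 lay within the control range. Wt1 is the Wilms tumour factor that keeps Sertoli cells differentiated. Wt1 had normalized counts of 624, 1429.6 and 1193 in control Spc and 100.04, 236 and 255 in cKO Spc, and of 116, 128 and 118 in control RS and 311, 124 and 377 in cKO RS. Wt1 had an interaction of 3.62 (SE 0.63, adjusted p = 0.00152) and the same overlap in RS. Rhox5 and Rhox8, X-linked homeobox genes of Sertoli cells, had no overlap in either cell type. Rhox5 lies at chrX:37804842-37808876, plus strand. Rhox5 had normalized counts of 125, 296 and 269 in control Spc and 34.1, 76.6 and 58.8 in cKO Spc, and of 28.3, 23.6 and 39.7 in control RS and 109, 59.5 and 137 in cKO RS. Rhox5 had an interaction of 3.76 (SE 0.60, adjusted p = 0.00107) and Rhox8 an interaction of 3.70 (SE 0.64, adjusted p = 0.00144).

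The other 7 of the 11 were 2 receptors and 5 further genes. Amhr2 is the receptor of anti-Müllerian hormone. Amhr2 had normalized counts of 2410.3, 6977 and 5237 in control Spc and 1277, 1586 and 1876 in cKO Spc, and of 699, 759 and 591 in control RS and 1395, 943 and 1834 in cKO RS. The groups did not overlap in either cell type, and the effect was -1.63 (SE 0.34) in Spc and 1.03 (SE 0.34) in RS. Fshr, the receptor for follicle-stimulating hormone, was low, with mean counts of 75.3 in control Spc, 16.1 in cKO Spc, 8.65 in control RS and 22.1 in cKO RS, and had an interaction of 3.55 (SE 0.68, adjusted p = 0.0024). Clu is the secreted chaperone clusterin. Clu had normalized counts of 9281, 25556 and 20991 in control Spc and 6056, 6409 and 8531 in cKO Spc, and of 1834, 2034 and 1574 in control RS and 4247, 2306 and 6953 in cKO RS. Clu had an interaction of 2.72 (SE 0.56, adjusted p = 0.00325). Cldn11, the claudin of the blood-testis barrier, had an interaction of 3.38 (SE 0.62, adjusted p = 0.00199), Gatm, which makes the creatine precursor, an interaction of 3.60 (SE 0.60, adjusted p = 0.00125), and Ctsl, a lysosomal protease, an interaction of 2.89 (SE 0.48, adjusted p = 0.00121). Aard, a marker of Sertoli cells, had an interaction of 3.57 (SE 0.65, adjusted p = 0.00184), with cKO RS library 2 again within the controls.

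Markers outside the 11 differed in the cell type that was called. Gata4, a transcription factor that Sertoli cells share with other somatic cells of the testis, had an effect of -0.86 (SE 0.49, adjusted p = 0.193) in Spc and of 1.57 (SE 0.53, adjusted p = 0.019) in RS. Amh, anti-Müllerian hormone, had an effect of -0.21 (adjusted p = 0.683) in Spc and of 1.83 (adjusted p = 0.00339) in RS. Kitl, the Kit ligand that spermatogonia need, had -1.02 (adjusted p = 0.131) in Spc and 1.84 (adjusted p = 0.00918) in RS. Trf, the transferrin that carries iron to germ cells, rose in RS by 3.17 (SE 0.42, adjusted p = 5.12e-05) and had an effect of -0.59 (SE 0.38, adjusted p = 0.249) in Spc. Inhbb, the inhibin beta B subunit, fell by 2.68 in Spc (adjusted p = 0.00141) and had an effect of 0.94 (adjusted p = 0.0921) in RS. Drd4, a dopamine receptor, was 1 of the 2 markers not called for the interaction, with 1.28 (adjusted p = 0.141). It passed when scaled by library size.

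The other 311 of the 322 genes had a median effect of -1.43 in Spc and 1.42 in RS, against -2.12 and 1.35 for the 11. The 12 with the largest interaction, among those averaging 100 or more normalized counts and with cKO apart from control in both cell types, were Cytip, Pag1, Thbs1, Kctd12, Sept9, Dmrta1, Rassf2, Axl, Klhl36, Mrc1, St8sia2 and Trim47. They were not chosen by cell type. Of the 322 genes, 217 (67.4%) had no overlap in either cell type, against 38.5% of all genes tested, a share that the choice of the genes raises.

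Cytip (chr2:58129137-58195532, minus strand), a regulator of adhesion best known from lymphocytes, had the largest interaction of the 12. Cytip had normalized counts of 127, 276 and 287 in control Spc and 38.8, 35.9 and 52 in cKO Spc, and of 30.8, 30.5 and 61 in control RS and 177, 99.1 and 288 in cKO RS. The effect was -2.44 (SE 0.45) in Spc and 2.21 (SE 0.45) in RS, with an interaction of 4.65 (SE 0.64, adjusted p = 0.000539). All 6 values of cKO Spc and control RS lay below all 6 of control Spc and cKO RS. Pag1 is a membrane adaptor that holds the kinase Csk. Pag1 had normalized counts of 207, 499.6 and 469 in control Spc and 54.1, 66.2 and 109 in cKO Spc, and of 28.3, 25 and 41.1 in control RS and 124, 84.9 and 205 in cKO RS. Pag1 had an interaction of 4.48 (SE 0.62, adjusted p = 0.000544).

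Axl (chr7:25757273-25788705, minus strand) is a receptor tyrosine kinase that takes part in the engulfment of dying germ cells by Sertoli cells. Axl had normalized counts of 871, 1916 and 1615 in control Spc and 334, 301 and 510.4 in cKO Spc, and of 134, 197 and 214 in control RS and 785, 375 and 1283 in cKO RS. The effect was -1.94 (SE 0.42) in Spc and 2.17 (SE 0.43) in RS, with an interaction of 4.11 (SE 0.60, adjusted p = 0.000734). Thbs1 is a secreted matrix protein that binds many cell surface receptors. Thbs1 had normalized counts of 169, 754 and 527 in control Spc and 50.6, 147 and 135 in cKO Spc, and of 20.6, 23.6 and 11.3 in control RS and 89.9, 71.7 and 83.1 in cKO RS. Thbs1 had an interaction of 4.25 (SE 0.77, adjusted p = 0.0018). In both genes the cKO RS libraries stayed below the highest control Spc libraries.

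Kctd12 and Mrc1 differed from most of the set in that cKO RS was the highest group. Mrc1 (chr2:14229392-14332057, plus strand) encodes the mannose receptor, a marker of tissue macrophages. Mrc1 had normalized counts of 659, 1369 and 1373 in control Spc and 520.2, 418 and 644 in cKO Spc, and of 308, 203 and 296 in control RS and 2076, 1521 and 2424 in cKO RS. The effect was -1.10 (SE 0.29) in Spc and 2.90 (SE 0.31) in RS, with an interaction of 4.00 (SE 0.42, adjusted p = 0.000192). Kctd12 is a subunit of GABA-B receptor complexes. Kctd12 had normalized counts of 355, 717 and 701 in control Spc and 227, 209.9 and 304 in cKO Spc, and of 127, 95.8 and 143 in control RS and 980.2, 587 and 1269 in cKO RS. Kctd12 had an interaction of 4.21 (SE 0.47, adjusted p = 0.000231). Tgfb1, the cytokine, and Id2, an inhibitor of basic helix-loop-helix factors, were further members with cKO RS highest and were named after their values were seen. Tgfb1 averaged 213 in control Spc and 241 in cKO RS, and Id2 127 and 208.

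Among the rest of the 12, Sept9, a septin of the cytoskeleton, had an interaction of 4.17 (SE 0.60, adjusted p = 0.000646), and Dmrta1, a factor of the DM domain family, an interaction of 4.15 (SE 0.76, adjusted p = 0.00186). Rassf2, a Ras-association protein, had an interaction of 4.13 (SE 0.58, adjusted p = 0.000595), and St8sia2, which builds polysialic acid chains, an interaction of 3.99 (SE 0.63, adjusted p = 0.000993). St8sia2 fell most of the 12 in Spc, from 375, 981 and 866 to 70.6, 115 and 138. Klhl36 and Trim47, members of ubiquitin ligase families, had interactions of 4.10 and 3.97.

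**Figure D3:**
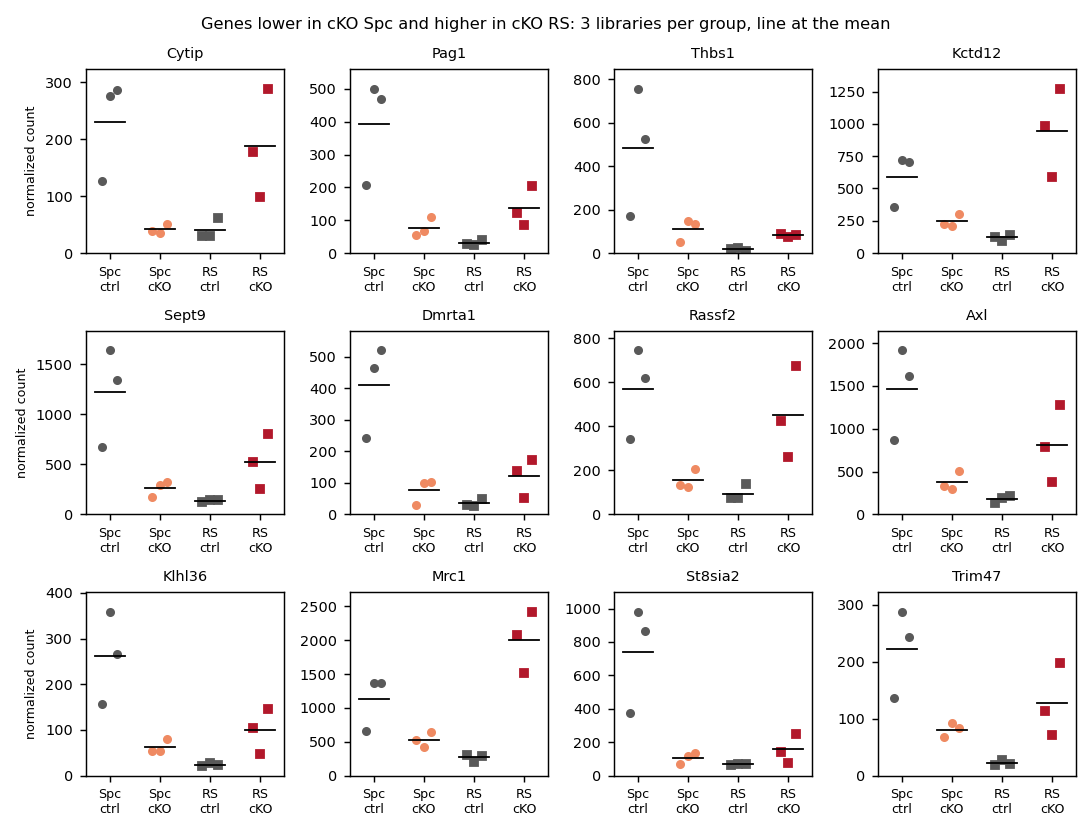
Normalized counts of the 12 named genes lower in cKO Spc and higher in cKO RS, on linear axes from 0, with 1 point per library, 3 libraries per group and a line at the mean. In each panel the control Spc points lie above the cKO Spc points and the control RS points below the cKO RS points.

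Genes of the X chromosome, which is silenced in pachytene spermatocytes and largely stays so in round spermatids, made up 60 of the 307 genes of this set with 1 GENCODE entry (19.5%), against 741 of 17387 (4.26%) of all genes tested. Seen from the chromosomes, 8.10% of tested X-linked genes and 1.49% of autosomal genes were in the set. The X-linked members had a median effect of -1.53 in Spc and 1.45 in RS, against -1.42 and 1.39 for the 247 autosomal members. Over all 741 tested X-linked genes the interaction was positive for 209 (28.2%) and negative for 145 (19.6%), against 18.8% and 24.1% of 16609 autosomal genes, and the median interaction was 0.10, against -0.12. Scaled by library size these medians were 0.80 and 0.58, with 319 X-linked genes positive and 11 negative, where 7468 of the 16609 autosomal genes were positive and 505 negative. On that scale the share of tested genes called positive was no higher for the X, while 96.7% of X-linked and 93.7% of autosomal calls were positive. With each library left out, 167 to 240 X-linked genes were positive and 90 to 194 negative, with 94 and 90 negative without control Spc library 2 or 3, and 96 without control RS library 3 or cKO RS library 1. Protein-coding genes made up 97.7% of the annotated members, against 90.8% of all genes tested.

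The CB libraries gave a measure that did not enter the choice of the genes. The genes were chosen as higher in cKO RS, the cells that hold CBs, and the share for all genes higher in RS is not given here. With no count filter, so that all 322 members were included, 73 were higher in cKO CBs and 0 were lower (edgeR, adjusted over all genes), with a median effect of 0.78, against 0.06 over all genes. At this setting 2604 of all 21679 genes were higher and 2913 lower. With the filter of 10 counts in at least 3 libraries, 178 of the 322 were tested and again 73 were higher and 0 lower, where 18.1% of 14051 genes were higher and 18.4% lower. DESeq2 gave 68 and 0, and 1 member was lower without the first cKO library. Summed over the 322 genes, normalized counts were 6673, 5807, 7398 and 6046 in the 4 control CB libraries and 8187, 15931 and 11445 in the 3 cKO libraries, with no overlap. The count of members higher was 38 without the second cKO library and 45 to 92 without any one of the other libraries. Sertoli cell markers summed to 365 to 568 in control and 456 to 1218 in cKO CBs, with 1 cKO library inside the control range, and their part in the result was not tested. The Sertoli gene Rhox8 was higher in cKO CBs by 3.42 (SE 0.79, adjusted p = 0.00473), while Aard had an effect of -0.54 (adjusted p = 0.27). Rassf2 was higher in cKO CBs by 1.94 (SE 0.52, adjusted p = 0.0107), Mrc1 by 2.08 (SE 0.45, adjusted p = 0.00327) and Axl by 1.40 (SE 0.49, adjusted p = 0.0398), while Pag1 had an effect of 0.30 (adjusted p = 0.683).

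The 182 genes of the opposite kind were well covered and had small shifts. They were higher in control RS than in control Spc for 160 of 182 genes, with a median difference of 0.62, a direction that the choice of the genes favours. In cKO mice the median difference was -0.16, and 115 of 182 were lower in RS than in Spc. Control RS had the highest mean for 128 genes and cKO Spc for 54, and control Spc had the lowest for 118 and cKO RS for 64. The summed normalized count was 984154 to 1066420 in control Spc and 1208430 to 1340550 in cKO Spc, and 1561610 to 1658890 in control RS and 1159270 to 1244710 in cKO RS. No overlap in either cell type was seen for 170 (93.4%), against 38.5% of all genes tested, a share that the choice of the genes raises. Of the 170 genes with 1 GENCODE entry, 150 (88.2%) were protein coding and 2 were X-linked. No member was in the Sertoli list, and 1 was in any other list, Uqcr10 of the respiratory chain.

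This set depended on the scaling far more than the first. Scaled by library size, 5 genes were left, all of them among the 182, and with DESeq2 size factors in edgeR the count was 90, with 68 of the 182. It was 38 with each cell type fitted apart, 118 with no count filter and 121 by DESeq2. Leaving out control Spc library 2 or 3, cKO Spc library 1 or cKO RS library 3 gave 109, 80, 111 and 93. The median interaction of the 182 was -0.81 by TMM, -0.74 by DESeq2 size factors and -0.10 by library size. By library size their median effect in RS turned to 0.24, beside 0.32 in Spc. The median interaction of all genes also moved, from -0.13 by TMM to -0.06 by DESeq2 size factors and 0.58 by library size.

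The 12 largest of this set by the same rule were Arl9, 4932411E22Rik, Cpxm1, 4930470P17Rik, Hs3st3b1, Dio2, BC029214, Dennd6b, 4930519G04Rik, Emc8-1190005i06rik, Lipf and Tpi1. Arl9 (chr5:77004055-77010606, plus strand), a small GTPase of the ADP-ribosylation factor family, led them. Arl9 had normalized counts of 1042, 484 and 509 in control Spc and 1645, 1607 and 1582 in cKO Spc, and of 4269.8, 3757 and 5172 in control RS and 1369.9, 1549 and 1511 in cKO RS. The effect was 1.25 (SE 0.25) in Spc and -1.57 (SE 0.24) in RS, with an interaction of -2.83 (SE 0.35, adjusted p = 0.000326). The cKO libraries lay above all controls in Spc and below all controls in RS. In CBs, 4 of the 12 were called, 1 higher and 3 lower, where 18.1% of all genes were higher and 18.4% lower. Arl9 fell by 1.52 (SE 0.37, adjusted p = 0.00643), 4932411E22Rik fell by 2.49 (adjusted p = 0.00217) and Dennd6b fell by 0.49 (adjusted p = 0.0496), while 4930470P17Rik rose by 0.91 (SE 0.22, adjusted p = 0.00552).

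Tpi1 (chr6:124810586-124814296, minus strand) is the glycolytic enzyme triose phosphate isomerase. Tpi1 had normalized counts of 9709, 7761 and 8044 in control Spc and 10918, 10166 and 10006 in cKO Spc, and of 25665, 23134 and 27006 in control RS and 10666, 11575 and 11359 in cKO RS. The effect was 0.29 (SE 0.09) in Spc and -1.17 (SE 0.09) in RS, with an interaction of -1.46 (SE 0.13, adjusted p = 0.000104). The rise in Spc was small and the fall in RS large, and cKO and control did not overlap in either. Aldoa, aldolase A of the same pathway, was also in the set and was named after its values were seen. Aldoa had normalized counts of 9794, 7896 and 7640.2 in control Spc and 14644, 13571 and 13918 in cKO Spc, and of 25112, 25415 and 28264 in control RS and 17517, 19376 and 19920.4 in cKO RS. The effect was 0.73 (SE 0.10) in Spc and -0.47 (SE 0.10) in RS.

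Dio2 (chr12:90724552-90738438, minus strand) encodes the deiodinase that activates thyroid hormone. Dio2 had normalized counts of 217, 191 and 208 in control Spc and 288, 297 and 263 in cKO Spc, and of 297, 264 and 325 in control RS and 124, 126 and 117 in cKO RS. Dio2 had an interaction of -1.73 (SE 0.20, adjusted p = 0.000267). Cpxm1 is a carboxypeptidase-like secreted protein. Cpxm1 had normalized counts of 449, 368 and 348 in control Spc and 529.6, 681 and 1007 in cKO Spc, and of 1060.4, 908 and 1172 in control RS and 378, 329 and 566 in cKO RS. Cpxm1 had an interaction of -2.23 (SE 0.35, adjusted p = 0.001). Hs3st3b1, which sulfates heparan sulfate chains, had an interaction of -1.74 (SE 0.33, adjusted p = 0.0024), and Dennd6b, of the DENN family of Rab exchange factors, an interaction of -1.60 (SE 0.30, adjusted p = 0.00206). Lipf, a lipase, was higher in RS than in Spc in both genotypes, with means of 98.3 and 440.0 in controls and 187 and 305 in cKO mice. Of the genes without a known role, 4930519G04Rik had the smallest error, with an interaction of -1.55 (SE 0.15, adjusted p = 0.000156), and 4932411E22Rik, 4930470P17Rik and BC029214 had interactions of -2.24, -1.83 and -1.64. Emc8-1190005i06rik is a read-through of neighbouring genes, so its counts are uncertain, with an interaction of -1.50.

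**Figure D4:**
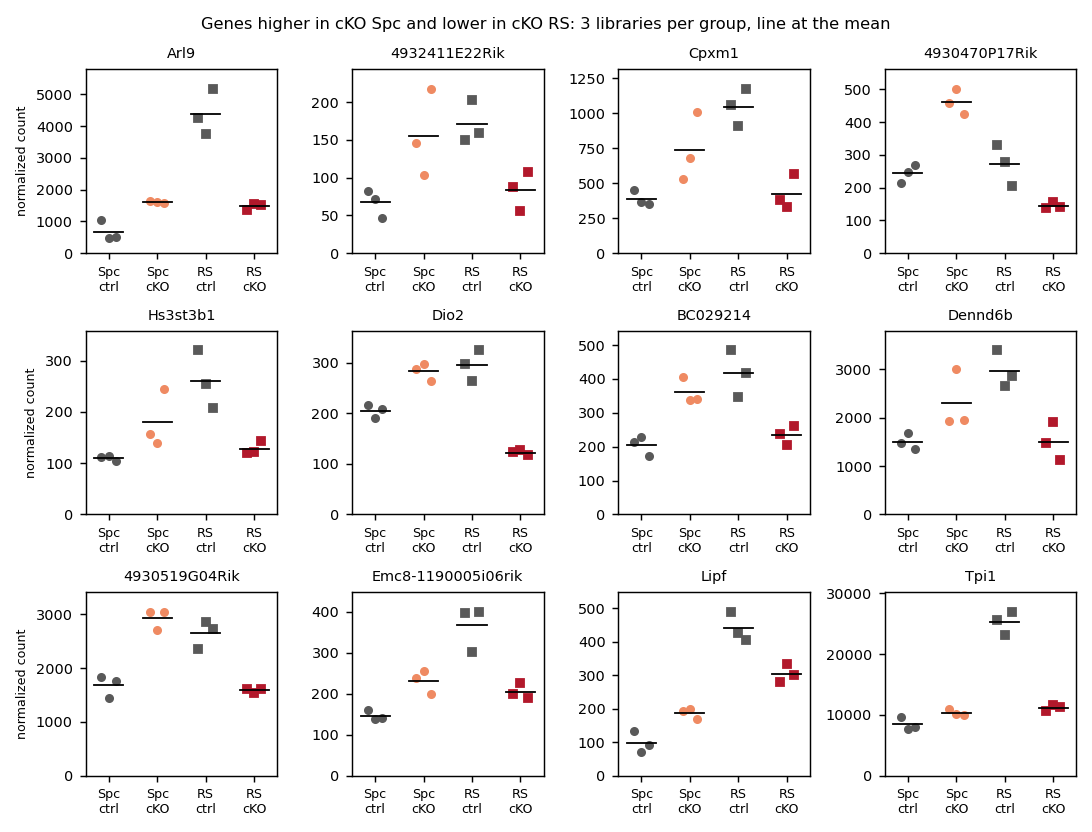
Normalized counts of the 12 named genes higher in cKO Spc and lower in cKO RS, on linear axes from 0, with 1 point per library, 3 libraries per group and a line at the mean. The control RS points lie above the cKO RS points in every panel, and the cKO Spc points lie above the control Spc points.

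The CB libraries did not enter the choice of the 182 genes either, though these genes were chosen as lower in cKO RS, the cells that hold CBs. With no count filter 11 were higher and 35 lower, where 2604 of all 21679 genes were higher and 2913 lower. With the filter 16 of 176 tested were higher and 33 lower, where 18.1% of 14051 genes were higher and 18.4% lower, and the median was -0.07, against 0.07 over all genes. With a filter of 50 counts in at least 3 libraries, 21 of 143 were higher and 24 lower, with a median of -0.01. By library size 5 were higher and 28 lower, and with each library left out 8 to 16 were higher and 20 to 34 lower, with the fewest lower without the second cKO library.

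Promoter windows of 250 bases before and 50 after the RefSeq start were searched for 2 motifs on both strands, the cAMP response element TGACGTCA, bound by the spermatid factor CREM, and the SOX core AACAAT. Windows were given for 242 of the 322 genes, 128 of the 182 and 13502 of all genes tested, with 1 window per gene. TGACGTCA was in 3.72% of windows of the 322, 3.12% of the 182 and 2.87% of all. AACAAT was in 6.61%, 7.81% and 7.10%. Windows of the 322 held a median of 20 CpG dinucleotides, those of the 182 held 19, and all windows 18. The windows of 2 named genes of each set are shown 5′ to 3′ on the gene's strand (RefSeq, GRCm38.p6), in lower case with either motif in capitals. They are Axl at chr7:25788684-25788983 on the minus strand and Mrc1 at chr2:14229164-14229463 on the plus strand, which hold neither motif, Dio2 at chr12:90738989-90739288 on the minus strand, with TGACGTCA at -95 to -88 from the start, and Tpi1 at chr6:124814109-124814408 on the minus strand, which holds neither. The Dio2 window is set by the RefSeq start and lies wholly upstream of the gene span given above, which is from GENCODE.
Axl: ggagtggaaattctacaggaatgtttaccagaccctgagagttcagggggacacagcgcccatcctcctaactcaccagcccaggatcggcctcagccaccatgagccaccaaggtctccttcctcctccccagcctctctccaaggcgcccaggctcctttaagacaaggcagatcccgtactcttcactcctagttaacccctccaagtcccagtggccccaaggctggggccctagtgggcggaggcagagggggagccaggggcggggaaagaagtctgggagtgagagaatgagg
Mrc1: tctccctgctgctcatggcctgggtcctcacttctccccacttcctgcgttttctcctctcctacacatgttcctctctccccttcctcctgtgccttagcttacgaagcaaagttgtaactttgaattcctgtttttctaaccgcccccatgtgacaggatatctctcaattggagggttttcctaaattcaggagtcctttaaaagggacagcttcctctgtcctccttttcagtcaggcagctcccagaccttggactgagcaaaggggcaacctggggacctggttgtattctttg
Dio2: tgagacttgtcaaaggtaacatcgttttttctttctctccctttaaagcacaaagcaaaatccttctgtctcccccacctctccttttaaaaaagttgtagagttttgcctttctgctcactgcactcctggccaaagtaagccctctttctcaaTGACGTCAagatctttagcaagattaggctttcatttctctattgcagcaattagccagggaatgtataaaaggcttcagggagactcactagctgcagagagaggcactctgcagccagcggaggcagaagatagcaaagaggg
Tpi1: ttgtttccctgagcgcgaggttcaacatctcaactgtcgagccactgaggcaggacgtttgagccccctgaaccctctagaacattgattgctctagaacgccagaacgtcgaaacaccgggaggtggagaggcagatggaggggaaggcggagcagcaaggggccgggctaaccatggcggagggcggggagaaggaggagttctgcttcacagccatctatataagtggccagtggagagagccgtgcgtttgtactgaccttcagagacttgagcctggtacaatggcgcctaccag

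The largest interactions over all genes, opposite or not, included genes of both kinds. The 6 lowest, among called genes with a mean count of at least 100, were Klk1, Tmod4, Klk1b8, 1700019G17Rik, Slc7a11 and Arl9. Tmod4 encodes a cap of actin filaments. Tmod4 had normalized counts of 70.2, 39.4 and 22.9 in control Spc and 10.6, 12.3 and 5.11 in cKO Spc, and of 481, 224 and 376 in control RS and 0.908, 5.66 and 8.48 in cKO RS. Its effect was -2.24 (SE 0.57) in Spc and -6.12 (SE 0.62) in RS, the same direction in both, with an interaction of -3.88 (SE 0.85, adjusted p = 0.00472). 1700019G17Rik also fell in both, with effects of -0.91 and -4.24, with an interaction of -3.33 (SE 0.20, adjusted p = 1.27e-05). Klk1 and Klk1b8 are members of the kallikrein cluster of chromosome 7, whose near copies can share reads, so their values are uncertain. Klk1 had an interaction of -4.83 (SE 1.02, adjusted p = 0.00379) and Klk1b8 an interaction of -3.52 (SE 0.55, adjusted p = 0.000929). Slc7a11 is the cystine importer. Slc7a11 had normalized counts of 99.3, 157 and 91.7 in control Spc and 220.1, 170.2 and 261 in cKO Spc, and of 259.6, 204 and 194 in control RS and 40, 28.3 and 88.2 in cKO RS. Its effect was above 0 in Spc but was not called there (adjusted p = 0.0747), so that it was not among the 182. Slc7a11 had an interaction of -2.96 (SE 0.53, adjusted p = 0.00174).

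The 6 highest were Alas2, Cytip, Pag1, C130074G19Rik, Thbs1 and Kctd12. Alas2, the X-linked enzyme of haem synthesis in red cell precursors, had an interaction of 4.87 (SE 0.69, adjusted p = 0.000621). Alas2 had normalized counts of 396, 796 and 835 in control Spc and 30.6, 45.4 and 62.2 in cKO Spc, and of 108, 154 and 146 in control RS and 424, 96.3 and 303 in cKO RS. It fell by 3.86 in Spc and was not called in RS (adjusted p = 0.0706), where cKO library 2 lay below all controls. The globin gene Hbb-bs did not follow it in Spc, with an effect of 0.01 (SE 0.70) there and 3.02 (SE 0.54) in RS. C130074G19Rik had an interaction of 4.41 (SE 1.17, adjusted p = 0.0119), with cKO RS library 2 again in the control range.

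Spermatid genes had negative calls for the interaction with TMM scaling and fewer of them when scaled by library size. All 15 late spermatid genes were called lower in RS and 14 in Spc, with a median effect of -3.96 and -2.10, where 33.2% of all genes were called lower in RS and 14.6% in Spc. Of the 15, 9 were called for a more negative interaction and 0 for a more positive one, where 24.1% of all genes were called negative. The 9 became 14 without control Spc library 1 and 15 without cKO Spc library 3. Fabp9, a fatty acid binding protein of spermatids, had an interaction of -1.12 (SE 0.14, adjusted p = 0.000414). Prm2, the protamine that packs sperm DNA, had an interaction of -1.83 (adjusted p = 0.0749), which passed with DESeq2 and without control Spc library 1 or cKO Spc library 3. Of 20 round spermatid genes 16 were negative and 0 positive, with a median interaction of -0.98. The 16 became 10 without control Spc library 2 or 3, 9 without cKO Spc library 2 or cKO RS library 1, and 8 without cKO RS library 3. Among the 16 were Pgk2, the testis phosphoglycerate kinase, at -1.51 (adjusted p = 0.000485) and Crem at -0.96 (adjusted p = 0.000931). Scaled by library size, the call for Crem was lost, the round spermatid genes had 1 negative and 3 positive calls and a median of -0.28, and the late spermatid genes 2 negative calls and a median of -0.92.

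Lists of inflammation and of rapid response had more positive than negative calls for the interaction. Of 19 immediate early genes, 12 were called positive and 3 negative, with a median of 1.99, where 19.0% of all genes were positive and 24.1% negative. Jun had an interaction of 2.58 (SE 0.49, adjusted p = 0.00219), Fosb an interaction of 2.50 (SE 0.64, adjusted p = 0.00956), Egr1 an interaction of 2.10 (SE 0.56, adjusted p = 0.0122) and Atf3 an interaction of 2.39 (SE 0.61, adjusted p = 0.0101), while Nr4a1, a nuclear receptor of the same early response, had an interaction of -0.99 (SE 0.25, adjusted p = 0.00836). The call for Nr4a1 was lost when scaled by library size. Of 15 interferon response genes, 7 were positive, or 4 without control Spc library 2, and 0 negative, with a median of 1.68, among them Usp18 at 3.67 (adjusted p = 0.00706). Of 18 macrophage markers, 10 were positive, or 6 without cKO Spc library 2 or control RS library 1, and 0 negative, with a median effect of 1.70 in Spc and 3.58 in RS. By library size, 13 immediate early genes, 10 interferon response genes and 16 macrophage markers were positive, with 0 negative in each list. On that scale all 18171 genes had 8087 positive and 545 negative calls. Csf1r, the receptor that macrophages need to survive, had an interaction of 1.26 (SE 0.39, adjusted p = 0.024), and Fcer1g, an Fc receptor chain, an interaction of 3.38 (SE 0.59, adjusted p = 0.00157). The call for Csf1r was lost without control RS library 1 or 2 or cKO Spc library 2, with interactions of 1.21, 1.14 and 1.14. Mrc1 was the only one of the 18 with opposite effects. Aif1 fell by 1.36 in Spc and fell by 2.67 in RS, while the other 17 were higher in RS. The 10 Leydig cell genes had a median effect of 1.54 in Spc and 4.00 in RS with wide errors, and their calls for the interaction depended on the settings. With TMM scaling in edgeR 0 were positive and 1, Fdx1, an electron carrier that is not limited to Leydig cells, was negative. The positive calls were 8 when scaled by library size, with 0 negative, and 8 without cKO RS library 2, 5 without control Spc library 1, 3 with a block of genotype and number, and 5 by DESeq2.

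Stress, NMD and RNA genes had calls in both directions with TMM scaling, where 19.0% of all genes were positive and 24.1% negative. Of 14 genes of the integrated stress response, 5 were positive and 4 negative, with Sesn2 at 2.00 (adjusted p = 0.000557) and Atf4 at 0.80 (adjusted p = 0.0138). Of 17 NMD factor genes, 5 were positive and 4 negative, with Upf1, the central helicase, at 1.34 (adjusted p = 0.000431). Of 16 tested snoRNA host genes, whose spliced transcripts are textbook NMD targets, 3 were positive and 3 negative, with a median effect of 1.17 in Spc and 1.29 in RS. Snhg12 rose more in RS, by 5.74 against 3.70, while Snhg8 rose by 1.32 in Spc alone and had an interaction of -1.55 (SE 0.25, adjusted p = 0.000992). Of 21 piRNA and germ granule genes, 3 were positive and 7 negative, with Mael at -0.73, Tdrd5 at 0.98 and Mybl1 at 0.58. Of 13 heat shock genes, 3 were positive and 5 negative, with Hspb1 at 2.18 and the germ cell gene Hspa4l at -1.07. With single libraries left out, the negative calls of the integrated stress response were 2 in 8 of 12 cases, all but control Spc library 1, cKO Spc library 3, control RS library 2 and cKO RS library 2. Those of NMD factors were 2 without control Spc library 3 or cKO RS library 1 or 3, those of snoRNA hosts 1 without cKO Spc library 2, control RS library 1 or cKO RS library 3, and those of heat shock genes 3 without cKO RS library 3. The positive calls of piRNA and germ granule genes were 5 without cKO RS library 2. The positive and negative calls by library size were 6 and 1 for the integrated stress response, 12 and 0 for NMD factors, 5 and 1 for snoRNA hosts, 14 and 0 for piRNA and germ granule genes and 8 and 1 for heat shock genes, where all 18171 genes had 8087 and 545.

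Housekeeping lists moved with the scaling. Of 81 ribosomal protein genes 59 were negative and 6 positive, with a median interaction of -0.63, and of 79 respiratory chain genes 50 were negative and 4 positive, with a median of -0.57. Scaled by library size, both medians turned to 0.08 and 0.14, below the 0.58 of all genes on that scale, and the calls to 17 positive and 3 negative and to 19 and 2. Of 38 proteasome genes, 18 were negative and 4 positive, with a median of -0.26 that turned to 0.45 and calls that turned to 23 positive and 1 negative. With each library left out, the positive calls of these lists were 3 to 7, 2 to 5 and 1 to 5, and the negative calls 54 to 62, 46 to 52 and 13 to 18. Meiotic chromosome genes (5 positive and 4 negative of 20), meiotic division genes (3 and 2 of 15) and spermatogonial genes (2 and 1 of 12) had medians of 0.09, 0.03 and 0.36, where 19.0% of all genes were positive and 24.1% negative. By library size these counts were 13 and 1, 12 and 0, and 7 and 0, where all 18171 genes had 8087 and 545. Of 25 tested clustered histone genes 1 was positive and 4 negative, or 3 and 0 by library size. Of 8 peritubular myoid and 7 endothelial genes tested, 1 and 2 were negative with TMM scaling. Of 5 erythroid genes 4 were positive, or 2 to 5 with a library left out, of which Hba-a1 and Hba-a2 share the same reads.

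**Figure D5:**
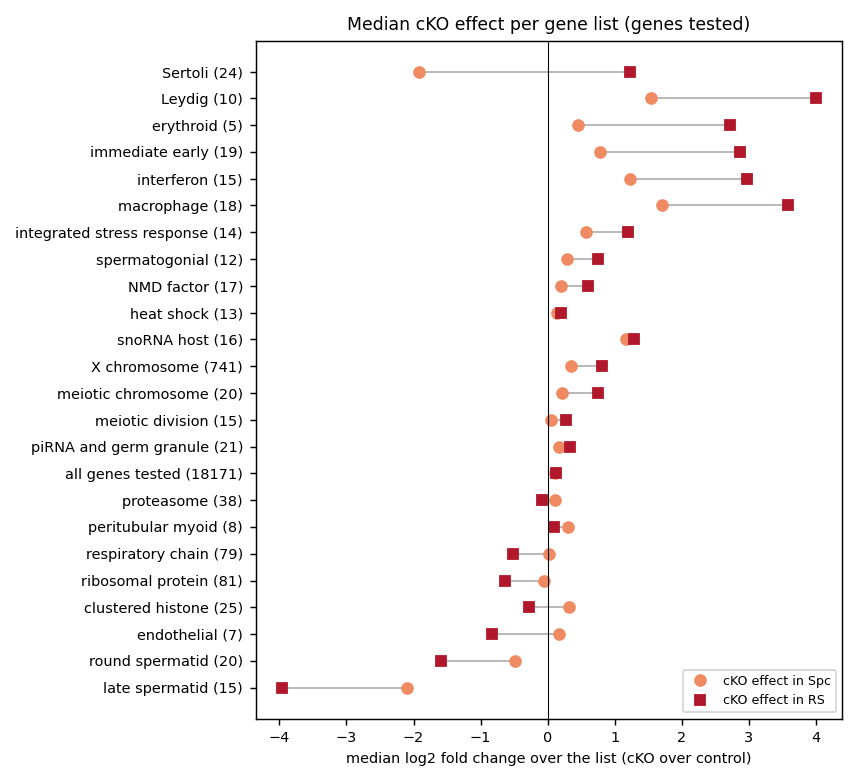
Median log2 fold change of cKO over control for each gene list, with the number of genes tested in brackets, in Spc (circles) and in RS (squares), sorted by the median interaction. The Sertoli list is the one whose median lies far below 0 in Spc (-1.92) and above 0 in RS (1.22), while most other lists keep 1 direction.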

How the data were processed

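RNA of pachytene spermatocytes and round spermatids was sequenced by the study from poly(A)-selected, stranded libraries, and chromatoid body RNA from total RNA. Reads were trimmed with cutadapt 2.8 and aligned with STAR, in version 2.7.1a per the submitters' processing notes, while the study's methods name another version for these libraries. The authors counted reads per gene and per repeat element with TEtranscripts on GRCm38, and the deposited values are raw read counts. Rows of repeat elements, whose names hold a colon, were left out.

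The Spc and RS tables were joined by row name, and genes that reached 10 counts in 3 or more of the 12 libraries were fitted with edgeR 4.0.16 (R 4.3.3), with TMM scaling, 4 group means and the quasi-likelihood test. The contrasts were cKO minus control in each cell type and the difference of those contrasts. Tests were two-sided, p-values were adjusted over all genes by the Benjamini-Hochberg method, and a call needed an adjusted p of 0.05 or less. Chromatoid body libraries were fitted apart in the same way. Normalized counts are counts divided by the TMM-scaled library size relative to its mean over libraries. Standard errors are those of log2 fold changes. The fit was tested on simulated counts first.

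The column names of the Spc and RS tables carry different trimming tags, so that any difference in trimming cannot be told apart from cell type, while it is shared by both genotypes. Gene counts totalled 36419197 to 47355837 per Spc or RS library and 2705277 to 12103906 per CB library, and intervals cover the spread between libraries only. Replicates differed by more than sampling noise (chi-square of 15.1 to 82.5 per degree of freedom), so none was counted as a duplicate. Of 6 Spc and RS pairs with the same replicate number, 2 had a correlation of deviations over 0.1 (range -0.18 to 0.56), so numbers were not taken to pair samples.

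Genes named are, for each opposite set, the 12 with the largest interaction among those averaging 100 or more normalized counts and with cKO apart from control in both cell types, then the 6 highest and 6 lowest interactions of all called genes with that mean, members of the gene lists and Smg6. Tgfb1, Id2 and Aldoa were added after their values were seen. The gene lists and the members were chosen with earlier results of these data known. Alternatives were library size or DESeq2 size factors for scaling, other count filters, a replicate block, each cell type fitted apart, each library left out, and DESeq2 1.42.0. Gene positions and biotypes are from GENCODE and promoter windows from RefSeq, both on GRCm38. Results for some genes of the lists are not reported here, while the list counts include them.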

Additional observations from a re-analysis of the deposited data

Results flagged for a closer look

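The effect of the knockout differed between Spc and RS, by the test of the difference itself, for 7834 genes. By value and test in each cell type, 322 genes were lower in cKO Spc and higher in cKO RS, and 182 were higher in cKO Spc and lower in cKO RS. The gene with the largest interaction among the named members of the first set was Cytip at 4.65, and among those of the second Arl9 at -2.83.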

How the results depend on the processing

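Scaling decided the balance of directions. Scaled by library size, calls for the interaction were 8087 positive (93.7% of calls) and 545 negative, against 44.2% positive by TMM, 50.6% by DESeq2 size factors and 49.8% by DESeq2. On that scale the genes lower in Spc and higher in RS numbered 636 and those of the opposite kind 5, and the interaction of Smg6 turned to 0.36. The second set numbered 90 with DESeq2 size factors, 118 with no count filter, 121 by DESeq2 and 38 with each cell type fitted apart. With each of the 12 libraries left out in turn, calls for the interaction ranged from 6012 to 8920, with 2618 to 3918 positive and 3169 to 5002 negative. The first set ranged from 173 to 518 and the second from 80 to 271, calls in Spc from 5068 to 6684, in RS from 11811 to 13153, and in CBs from 3863 to 5243. With the replicate number as a block, 7256 interactions were called, and 7463 with a block of genotype and number, while the 2 sets held 298 and 146 genes. Since the numbers were not taken to pair the samples, these are given as counts only. No paired analysis was run for the CB libraries, because the numbers in their column names do not match those of the sample labels. Of 1462 alternative values of 77 named genes, 1445 kept direction and side of the threshold, 7 lost the call, 9 gained it and 1 reversed. The cause of these changes was not tested. Low counts limit the CB comparison of the first set, where 144 of the 322 genes fell under the count filter, against 6 of the 182.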

Other observations

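Long noncoding RNAs had few positive calls for the interaction with TMM scaling. Of 571 tested lincRNA genes, 18 (3.15%) had a positive interaction and 131 (22.9%) a negative one, where 19.0% of all genes were positive and 24.1% negative, and the median was -0.80. With each library left out, 83 to 190 were negative and 10 to 24 positive, with the fewest negative, 83 and 85, without cKO RS library 3 and control Spc library 2. Of 355 antisense genes, 107 (30.1%) were negative and 11 (3.10%) positive, with a median of -0.81. The negative antisense genes were 66 without cKO RS library 3 and 73 to 140 without any one of the other libraries. Protein-coding genes were divided more evenly, with 24.0% of 15793 negative and 20.6% positive and a median of -0.07. The median effect of lincRNA genes was -0.12 in Spc and -0.90 in RS. The balance of calls turned with the scaling, while positive calls stayed a smaller share than over all genes. Scaled by library size, 73 lincRNA genes were positive and 13 negative, and 42 antisense genes were positive and 16 negative, where 8087 of all 18171 genes were positive and 545 negative. The medians were then -0.10 and -0.11, against 0.63 for protein-coding genes and 0.58 for all genes. With DESeq2 size factors 111 lincRNA genes were negative and 20 positive. Under every scaling run, the median of both classes thus lay below that of protein-coding genes.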
